A study of Drosophila melanogaster with 2 samples.

Results

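Of the 2031 thresholded binding peaks of the fork head domain protein fd102C, 589 (29.0%) lay inside a gene, in no annotated exon, and over 1000 bp from every annotated transcript start. These intronic peaks are described here by their position, sequence, replicate signals and host genes. A peak was placed by its summit, the position of the highest signal in the peak, against the Ensembl annotation of the dm6 assembly without transposable elements. The other thresholded peaks were 1082 within 1000 bp of a start site, 317 intergenic peaks over 1000 bp from any start site and 43 peaks in exons that far away. The choice used position only, so the sizes of these classes were not tested. The pooled list also held 9361 weaker peaks that met the same position rule but did not pass the authors' threshold. They serve below as a comparison at like positions and are called the peaks below the threshold. By its label, the pooled list holds background as well as peaks. Counting summits up to 100 bp apart as a match at any rank, the 2 replicate lists both matched 2418 of these 9361. For 1253 of them neither replicate list gave a match. How many of them are background rather than weak binding was not tested.

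The embryos came from a transgenic line of Drosophila melanogaster in which GFP is fused to the C-terminal end of fd102C, collected at 2 to 6 h with males and females pooled. There is a single group of 2 biological replicates, with no mutant, other stage or untagged line beside it, and whole embryos mix all cell types. The labels describe both libraries as input control, although by title and assay they are ChIP-seq of a transcription factor and fd102C stands in the antibody field. The libraries are treated here as ChIP, and the age is that of the source description, because the age field holds an impossible number of hours. The signal of a peak is the value of the authors' caller on an unstated scale. It is used only to rank and describe peaks within a list. Read depth is unknown, and peaks within a gene or near each other are not independent.

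Fork head domain proteins are transcription factors that bind DNA through a winged helix, and several act in early embryos to pattern segments and gut. Their common site is an AT-rich core that can lie in either orientation. Introns of developmental genes in flies often hold enhancers, which act on the host gene's promoter or on that of a neighbour. A ChIP peak records where the protein or its complexes could be crosslinked, and does not show which gene, if any, is regulated.

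The windows of 4 strong intronic peaks with a fork head site, and of 1 without, show what the matches look like. Each runs 100 bases to either side of the summit on the plus strand of the RefSeq copy of the dm6 genome, and capitals mark every match on either strand to the fork head site in 4 forms, which are GTAAACA and the form GTAAATA, and with A as the first base ATAAACA and the form ATAAATA. The first is in an intron of Rbfox1, a neuronal and muscle splicing factor gene (chr3L:10519030-10519230). The next are in SKIP, named for an interaction with the potassium channel Shal (chr3R:22147572-22147772), in bab2, a BTB transcription factor gene (chr3L:1166348-1166548), and in the Hox gene lab (chr3R:6667371-6667571). The window without a match is in cno, an adherens junction protein gene (chr3R:5215427-5215627).
Rbfox1: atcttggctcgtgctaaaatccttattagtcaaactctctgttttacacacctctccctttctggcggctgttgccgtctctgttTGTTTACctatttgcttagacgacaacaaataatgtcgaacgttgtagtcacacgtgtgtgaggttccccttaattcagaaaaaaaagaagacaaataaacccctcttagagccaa
SKIP: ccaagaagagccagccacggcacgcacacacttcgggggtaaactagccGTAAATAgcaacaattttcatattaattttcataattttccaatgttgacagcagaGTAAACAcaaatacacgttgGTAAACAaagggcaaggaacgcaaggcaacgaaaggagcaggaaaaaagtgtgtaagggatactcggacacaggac
bab2: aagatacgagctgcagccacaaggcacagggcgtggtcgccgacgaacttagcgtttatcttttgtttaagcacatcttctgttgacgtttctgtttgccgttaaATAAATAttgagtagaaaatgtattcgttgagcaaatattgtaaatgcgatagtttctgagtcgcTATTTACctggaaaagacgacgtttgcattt
lab: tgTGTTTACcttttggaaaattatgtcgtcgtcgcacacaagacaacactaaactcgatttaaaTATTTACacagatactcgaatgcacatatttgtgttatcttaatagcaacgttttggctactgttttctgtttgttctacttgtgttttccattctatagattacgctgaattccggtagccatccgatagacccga
cno: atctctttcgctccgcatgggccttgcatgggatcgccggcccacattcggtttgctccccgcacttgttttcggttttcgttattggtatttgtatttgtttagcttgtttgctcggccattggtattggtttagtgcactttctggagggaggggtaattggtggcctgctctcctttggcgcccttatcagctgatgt
The Rbfox1 window holds 1 match and the SKIP window 3, all of them beginning with G when read in the sense of the motif. The bab2 and lab windows hold 2 matches each.

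Sites nearest the summit in 8 further intronic peaks are aligned below, each as 30 bases with the site in capitals and read in the sense of the motif. They are grouped by form, because the forms with G as the first base stood further above the flanks than those with A. The first 4 carry GTAAACA and lie in Lrch (chr2L:17378837-17378866, plus strand), cad (chr2L:20781020-20781049, minus strand), skd (chr3L:21007922-21007951, plus strand) and Trl (chr3L:14759465-14759494, plus strand). The next 2 carry GTAAATA and lie in Tre1 (chrX:5678095-5678124, minus strand) and Meltrin (chr3R:14671014-14671043, plus strand). The last 2 carry ATAAACA and lie in Hr4 (chrX:1947705-1947734, plus strand) and aop (chr2L:2164961-2164990, minus strand).
Lrch: tgttggccaagtGTAAACAtccaggaaaac
cad: aaatacttgtggGTAAACAgcatttcggcc
skd: aattacgtaaaaGTAAACAacacggacaaa
Trl: taactggtttttGTAAACAaattgtataag
Tre1: taagactttgatGTAAATAtgtatatatgt
Meltrin: gcctacaactagGTAAATAtttggcaagta
Hr4: ttagttttaattATAAACAagtgcatatgc
aop: gaaattggacatATAAACAtttaatgaatt
The host genes have roles in several pathways. cad encodes the posterior homeodomain protein Caudal, Trl the GAGA factor, skd a Mediator subunit, Hr4 a nuclear receptor, aop an Ets domain repressor of Ras signalling, and Tre1 a receptor used by migrating germ cells.

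A fork head site, meaning any of the 4 forms on either strand, was found in 286 of the 589 windows (48.6%, Wilson 95% confidence interval 44.5 to 52.6). The background over all 2031 thresholded peaks was 43.1%. Windows centred 1000 bp to the lower-coordinate side of each summit held a site in 30.1%, which is 18.5 points less (exact McNemar test, p adjusted by Benjamini-Hochberg over 25 motifs = 7.77e-09). Peaks below the threshold held a site in 31.2%, which is 17.4 points less (two-sided Fisher's exact test, adjusted p = 5.11e-16). The flanks were not held to the position rule, so some may lie in exons, near a start or outside the gene. Base composition moved with the differences from the flanks and from the peaks below the threshold. The median GC content was 37.3% in the intronic windows, against 40.8% in the flanks and 40.8% at the peaks below the threshold. Within bins of 5 points of GC the difference from the peaks below the threshold was 12.9 points (Cochran-Mantel-Haenszel test in place of the exact test, adjusted p = 4.86e-09). No comparison with the flanks was made within such bins.

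Against the other thresholded peaks the differences were smaller. A site was present in 48.6% of intronic and 41.9% of start-site peaks, a difference of 6.69 points with adjusted p = 0.0354 by Fisher's exact test. That call of the exact test did not pass with GC bins (5.71 points, adjusted p = 0.104) or with the highest peaks of replicate 1 alone (6.05 points, adjusted p = 0.073). In wider windows, reaching 250 bp from the summit, the difference was -0.0351 points. Intergenic peaks away from start sites held a site in 40.4%, 8.18 points less than the intronic peaks, and this did not pass (Fisher's exact test, p = 0.021, adjusted p = 0.375).

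**Figure D1:**
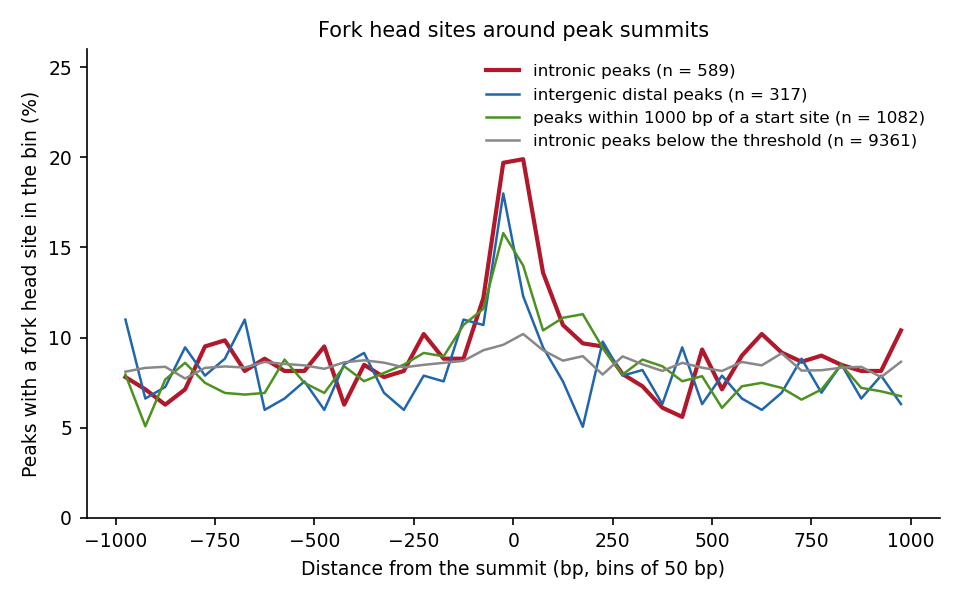
Share of peaks with a fork head site in each bin of 50 bp, as a percentage, against distance from the summit in bp, for intronic peaks, intergenic distal peaks, start-site peaks and intronic peaks below the threshold. The intronic line reaches 19.7% and 19.9% in the 2 bins next to the summit, where the peaks below the threshold have 9.6% and 10.2%.

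The sites lay close to the summits, as the profile of sites by distance shows. In the bins just below and just above the summit, 19.7% and 19.9% of intronic peaks held a site. Intergenic distal peaks held 18% and 12.3% there, start-site peaks 15.8% and 14%, and peaks below the threshold 9.6% and 10.2%. In the 286 intronic windows with a site, the nearest lay a median of 25 bp from the summit. It was within 25 bp in 144 windows and within 50 bp in 214. Windows end 100 bp from the summit, and the same distances are not given for flanks or other peaks. These counts alone therefore do not show closeness. In all there were 448 sites: 303 windows held none, 176 held 1, 71 held 2 and 39 held 3 or more, with 5 as the highest number.

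The 4 forms were not equally raised. GTAAACA was present in 14.1% of intronic windows and 5.6% of flanks, 2.52 times the flank share, and GTAAATA in 16.8% and 6.45%, 2.61 times. ATAAATA was the commonest form, in 20.9% of intronic windows and 13.4% of flanks, 1.56 times. ATAAACA was in 12.7% and 10.5%, 1.21 times. Against intergenic distal peaks, GTAAACA was in 14.1% of intronic and 6.94% of intergenic windows. The 2 G forms together differed by 9.55 points (Fisher's exact test, adjusted p = 0.0388), although all 4 forms together did not pass. No other alternative to that comparison passed, and the adjustment does not cover the choice of forms. The G forms were not rerun with GC bins, other windows or single replicates. Against start-site peaks the G forms differed by 8.99 points (Fisher's exact test, adjusted p = 0.000166) and the A forms by 2.71 points, which did not pass (adjusted p = 0.431).

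Among the intronic peaks themselves, the share with a site did not follow the signal in steps. From the strongest to the weakest quartile it was 53.4%, 44.2%, 51.0% and 45.6%. The strongest quartile exceeded the weakest by 7.8 points, which did not pass (Fisher's exact test, p = 0.201). The sbb, Rbfox1, nyo and SKIP peaks at the top had a site, while those of cno, ush and babos had none.

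Of the 25 motifs, 4 (16%) were more frequent at intronic peaks than in their flanks and none was less frequent. GATA factor sites (AGATAA or the form TGATAA or the form AGATAG, on both strands, as for all motifs) were present in 39.9% of intronic windows and 29.9% of flanks (exact McNemar test, adjusted p = 0.00128). GATA factors are zinc finger proteins of the early embryo's dorsal ectoderm, gut and blood, and ush, a host of 6 intronic peaks, encodes a cofactor of theirs. The 6-mer ACACTG, which can overlap the end of the M1BP site, was in 16.8% of intronic windows and 8.66% of flanks. It had been picked from these same peaks in earlier results, so it counts among the 4 but its share is given without a test. The site of Zelda, CAGGTA, was in 6.28% of intronic windows and 2.89% of flanks (exact McNemar test, adjusted p = 0.0487). Zelda is the maternal factor that opens chromatin at the onset of zygotic transcription. The Zelda call did not pass in 5 of 9 alternatives. With the flank on the other side the difference was 0.849 points (exact McNemar test, adjusted p = 0.927), and in windows reaching 50 bp it was 0 points. The GATA call against flanks did not pass in windows reaching 50 bp (adjusted p = 0.552) or 250 bp (adjusted p = 0.415) from the summit, or among the 1016 strongest thresholded peaks (adjusted p = 0.103, exact McNemar test).

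Against the peaks below the threshold 4 of 25 motifs differed (16%), 3 higher and 1 lower. Besides the fork head site these were GATA, in 39.9% of intronic and 29.6% of weaker peaks (adjusted p = 2.12e-06), by Fisher's exact test, and ACACTG, in 16.8% and 9.13%, given without a test as above. The proneural E-box CAGCTG was lower, in 5.26% of intronic and 8.71% of weaker peaks (Fisher's exact test, adjusted p = 0.0179), and this call did not pass with GC bins (adjusted p = 0.155), with the peaks of replicate 2 alone (adjusted p = 0.123) or with those of replicate 1 alone (adjusted p = 0.162).

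Start-site peaks differed from intronic peaks in 7 of 25 motifs (28%), 2 higher and 5 lower in the intronic set. GATA sites were in 39.9% of intronic and 30.8% of start-site peaks (Fisher's exact test, adjusted p = 0.000954), a call that did not pass in 4 of 8 alternatives, among them narrower and wider windows. DREF, M1BP, BEAF-32 and the GAGA factor, whose sites were lower, are known from fly promoters and chromatin boundaries. The classes were cut by distance from a start site, and windows near starts without a peak were not compared. The tests therefore cannot tell a trait of the peaks from one of their position. In the flanks of the intronic peaks the shares were near those at the summits: DREF 0.509%, BEAF-32 22.4%, M1BP 0.17% and GAGA 3.4%. TATCGATA, the site of the promoter-bound factor DREF, was in 0.509% of intronic and 5.08% of start-site peaks (exact test, adjusted p = 1.63e-06). CGATA, the core of the boundary protein BEAF-32, which also lies within the DREF site, was in 22.1% and 32.3% (exact test, adjusted p = 6.08e-05). GGTCACACT, the site of the promoter factor M1BP, was in 0 of 589 intronic windows, which allows a share of up to 0.648% by the Wilson interval, and in 2.77% of start-site peaks (exact test, adjusted p = 2.02e-05). The proneural E-box was in 5.26% and 12.3% (exact test, adjusted p = 2.02e-05). GAGAGAG, the site of the GAGA factor, was in 3.23% and 6.56% (exact test, adjusted p = 0.0179), a call that did not pass in 7 of 8 alternatives.

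**Figure D2:**
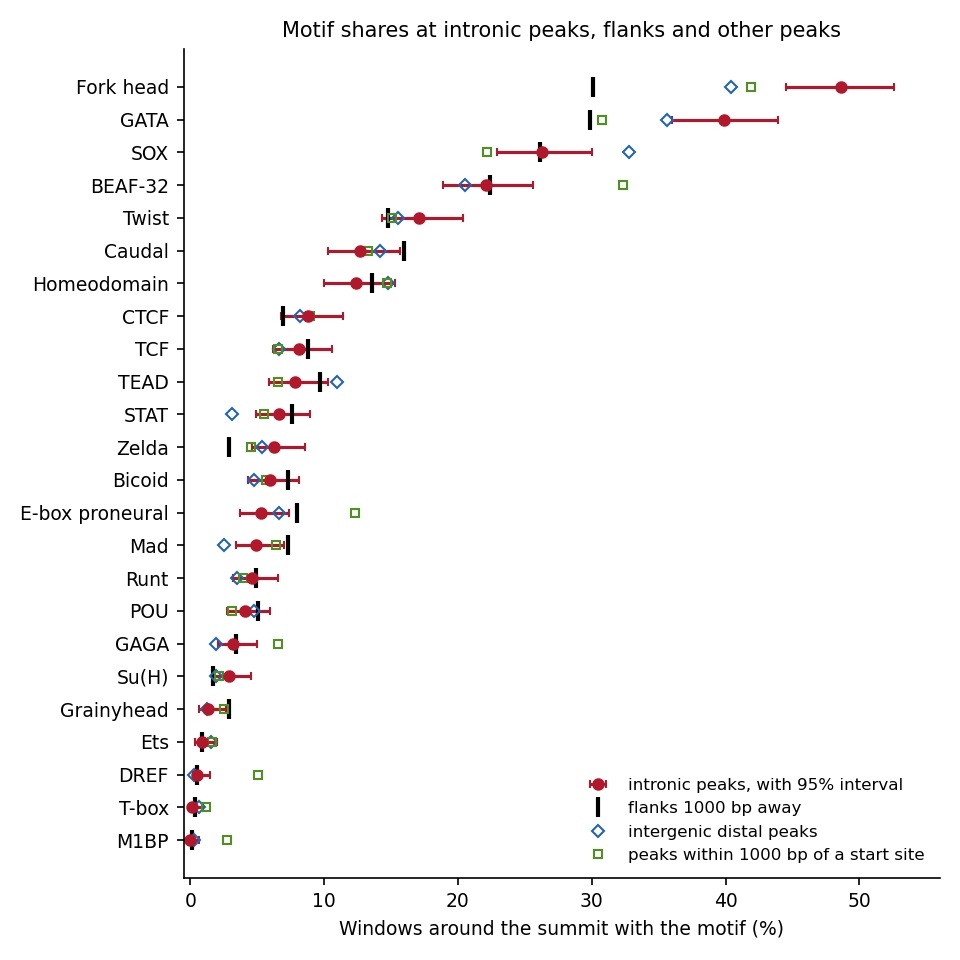
Percentage of 201 bp windows that hold each of 24 motifs, with red points and 95% Wilson intervals for the 589 intronic peaks, black bars for their flanks, diamonds for intergenic distal peaks and squares for start-site peaks. Fork head and GATA stand to the right of the flanks, while the proneural E-box, DREF, BEAF-32 and M1BP points of the intronic peaks lie left of the start-site squares.

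Against intergenic distal peaks, 0 of 25 motifs (0%) passed by Fisher's exact test. At an unadjusted p under 0.05 there were 3. The fork head site was one of them. The Stat92E site TTCNNNGAA was in 6.62% of intronic and 3.15% of intergenic peaks (exact test, p = 0.0306, adjusted p = 0.375). SOX sites (ACAATG or ACAAAG) were in 26.3% of intronic and 32.8% of intergenic peaks (exact test, p = 0.0449, adjusted p = 0.375). As the plot of motif shares shows, the intergenic diamonds lay near the intronic points for most motifs, with no replicate error to set beside them.

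A scan of all 2080 6-mers, each joined with its reverse complement, gave a view that did not depend on the motif panel. Of these, 47 (2.26%) were more frequent at intronic summits than in flanks and 25 less frequent (exact McNemar test, adjusted p under 0.05). Of the 47, 44 were also higher than at the peaks below the threshold. The share of all 2080 that were higher there is not given. Both comparisons used the same intronic windows, so the second is no separate check. TAAATA led, in 49.6% of intronic windows and 29.0% of flanks (exact test, adjusted p = 5.82e-09), and CAAACA followed, in 40.6% and 21.6% (exact test, adjusted p = 1.84e-08). CAAATA was in 40.4% and 23.1%. These overlap or resemble the fork head core. AGTGTA, whose reverse complement TACACT overlaps ACACTG, was in 18.2% and 7.3% (exact test, adjusted p = 1.65e-05). AATATT, in 36.0% and 20.2% (exact test, adjusted p = 6.97e-07), is in none of these motifs. AAATAT was also raised, in 52.8% and 34.6%. Both can overlap the end of the fork head forms GTAAATA and ATAAATA, as they do in the printed Meltrin and bab2 sequences. Whether they are raised apart from those forms was not tested. The less frequent 6-mers with the lowest adjusted p, TCGCCA (2.89% and 10.5%) and GGAGCC (1.36% and 6.11%), are GC-rich. The scan was not adjusted for GC content, whose median was 37.3% at summits and 40.8% both in flanks and at the peaks below the threshold.

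CAAACA or CAAATA was then counted as a looser core, chosen after the 6-mers had been seen and so given without a test. It was present in 62.6% of all intronic windows and 39.2% of flanks. Among the 303 windows without a fork head site it was in 53.5%, against 41.3% of their flanks. Among the 286 windows with a fork head site it was in 72.4%, against 37.1% of their flanks. Neither the looser core nor any of the 4 fork head forms was found in 141 windows (23.9%). The fork head site and ACACTG shared 42 windows, 244 had the fork head site only, 57 had ACACTG only and 246 had neither.

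The strongest intronic peak lay in sbb, a nuclear repressor gene also known as scribbler or brakeless (chr2R:18336964-18337328). Its pooled signal was 1288.2, with 676.7 in replicate 1 (rank 6) and 625.5 in replicate 2 (rank 3). The cno peak had 1275.2 in the pooled list, 713.5 in replicate 1 and 555.6 in replicate 2. The Rbfox1 peak had 1078.7, 587.8 and 494.7 in the same order. These 3 peaks were among the 11 highest of each replicate. An intronic peak of ush, 1394 bp from the start of its neighbour cbt, came next with 926.9. It was followed by nyo (851.0), which encodes a zona pellucida domain protein of the apical matrix, babos (819.6) and SKIP (799.1). cv-2, a BMP-binding secreted protein gene, had 788.6 in its second intron gap, 13650 bp from the nearest protein-coding start, and Tsp, the thrombospondin gene, had 735.2.

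The remaining peaks of the 25 strongest intronic ones ranged in pooled signal from 491.7 to 694.9. Transcription factor genes among their hosts were bab2 (694.9), lab (617.8) and Antp (525.9). Genes of signals and surface proteins were vn, an EGF receptor ligand (517.4), ImpL2, a secreted insulin-binding protein (590.0), Tre1 (589.3), kirre, an adhesion protein of myoblast fusion (671.4), and fra, the Netrin receptor (498.5). Tlk, a kinase of chromatin assembly, had 581.5, and arg, the arginase gene, 580.4. CG32772 (685.8), Lrch (560.9), CG11050 (549.2), a second cno peak (535.0), CG46385 (500) and CG5953 (491.7) completed them. Intronic peaks made up 8 of the 25 and 24 of the 100 strongest thresholded peaks. Their median signal was 186.6, against 182.0 for intergenic distal and 179.0 for start-site peaks.

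Most intronic peaks were found in both replicates, and those that were not had pooled signals of up to 299.1. A summit within 100 bp was present at any rank in replicate 1 for 579, in replicate 2 for 575, and in both for 566, and 1 peak, in nAChRalpha3, was in neither. Restricted to the 2031 highest peaks of each replicate, 414 (70.3%) were found in both, where the background over all thresholded peaks was 67.5%. A further 95 were found in replicate 1 only, 59 in replicate 2 only and 21 in neither. By quartile of pooled signal the share in both was 99.3%, 93.9%, 73.5% and 14.3%. Across the 566 peaks the replicate signals had a Spearman rank correlation of 0.73, as a description, since the threshold itself used the replicates.

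**Figure D3:**
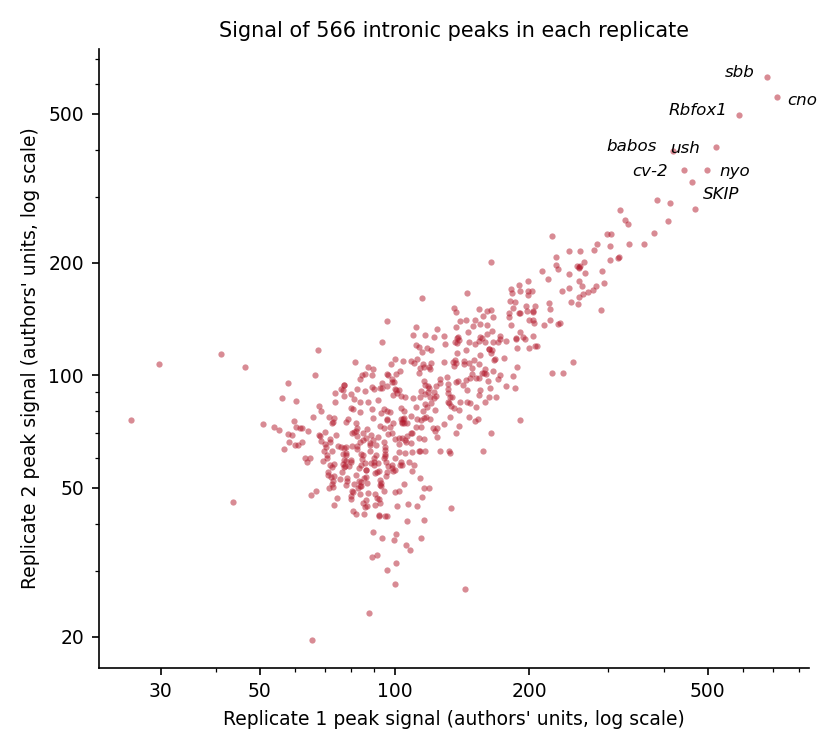
Signal of 566 intronic peaks in replicate 1 (x axis) and replicate 2 (y axis), both in the authors' units on log axes, each point 1 peak, with the 8 strongest hosts named. The points narrow towards sbb, cno and Rbfox1 at the top right and spread widely at low signal.

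The scatter of replicate signals leaves out peaks missing from either list. The highest intronic peak with no summit in replicate 2 was in mew, an integrin gene, with 299.1 in the pooled list and 200.2 in replicate 1. The highest with none in replicate 1 was in dnt, which encodes a Wnt receptor tyrosine kinase, with 219.5 pooled and 118.6 in replicate 2. Found in both among the highest peaks were 70.3% of intronic and 70.0% of intergenic distal peaks (difference 0.257 points, Fisher's exact test, p = 0.939). Of start-site peaks 65.0% were, 5.32 points less (Fisher's exact test, p = 0.0296), and this did not hold for the 5000 highest peaks of each replicate (1.02 points, p = 0.508). The threshold itself used the replicate lists, so neither of these comparisons is an independent check of the peaks.

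Within their genes the intronic peaks lay in the first gap more often than the peaks below the threshold did. Gaps are the stretches between the merged exons of a gene, counted from its 5′ end. The first gap held 233 of the 589 summits (39.6%) and 2990 of the 9361 summits below the threshold (31.9%), a difference of 7.62 points (Fisher's exact test, p = 0.000162). The gaps were long, with a median of 10994 bp for intronic peaks and 10756 bp for the peaks below the threshold. Few summits lay at exon edges: 7 intronic summits (1.19%) and 492 of those below the threshold (5.26%) were within 100 bp of an exon. The median distance to an exon was 2328 bp and that to a transcript start 3753 bp, against 2189 bp and 4449 bp for the peaks below the threshold. Over 5000 bp from a start lay 38.2% of intronic summits and 45.8% of those below the threshold, and the part of this distance in the first-gap difference was not tested.

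Distance from a start site varied widely. Of the intronic summits, 137 lay 1001 to 2000 bp away, 225 over 5000 bp and 93 (15.8%) over 10000 bp. The farthest, in lncRNA:CR32773, was 32718 bp from any start. Just inside the limit of 1000 bp were peaks in Src64B (1002 bp, signal 141.0), CG31371 (1003 bp, 134.1) and Oda (1025 bp, 432.9). Just outside were peaks in mnd (994 bp, 172.7), crb (993 bp, 206.1) and lncRNA:CR44357 (991 bp, 211.4). A further 304 thresholded summits lay in introns but within 1000 bp of a start. For 452 of the 589 (76.7%) the nearest protein-coding start belonged to a gene holding the peak, against 71.1% of the peaks below the threshold, and for the rest it belonged to another gene.

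The 589 peaks lay in 373 host genes, taking the longest gene where several contained a summit, as for 33 peaks. Of the hosts, 255 held 1 peak and 118 held 2 or more, which together had 334 peaks (56.7%). jing, a zinc finger gene of the midline glia and trachea, held 9, with signals from 131.5 to 366.4, all in its first gap of 106798 bp. Of these, 5 had a fork head site and 8 were among the highest in both replicates. sbb held 7 (130.1 to 1288.2, 5 with a site). ush held 6 (137.3 to 926.9, 2 with a site). In both genes a single peak stood far above the others. Over all 589 intronic peaks the share with a site was 48.6%.

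Hosts with 5 peaks covered several kinds of protein. Antp (158.7 to 525.9) and hth (133.0 to 362.3) encode a Hox protein and a Hox cofactor. Eip75B (147.7 to 271.8) encodes an ecdysone-induced nuclear receptor, shn (126.3 to 251.6) a zinc finger partner of Mad, and px (138.3 to 437.6) a nuclear protein of wing vein patterning. Raf (133.2 to 375.8) is the kinase downstream of Ras, Ptp61F (138.4 to 287.1) a phosphatase of the JAK/STAT pathway, RapGAP1 (127.0 to 241.5) a Rap1 regulator and Ten-a (131.6 to 370.5) a teneurin of synaptic matching. CG43658, Lrch and Shrm, the fly Shroom gene, held 4 each. All 4 of Shrm had a fork head site, where the share over all intronic peaks was 48.6%. Intron length differed widely among these hosts. Ten-a had 233 kb of intron over 1000 bp from a start and 21.4 peaks per Mb of it, Raf 30.6 kb and 164.0 per Mb, and Lrch 9.72 kb and 411.0 per Mb.

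**Figure D4:**
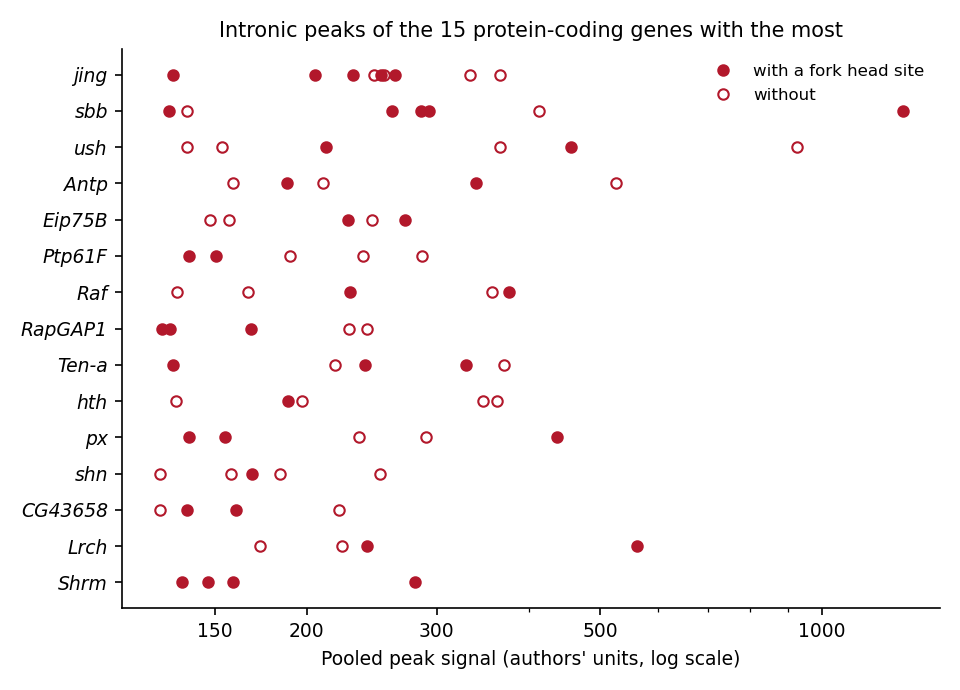
Pooled signal (authors' units, log x axis) of each intronic peak in the 15 protein-coding host genes with the most, 1 row per gene and 1 point per peak, filled where a fork head site lies within 100 bp of the summit and open where none does. sbb and ush each have a single point far to the right, while the jing points lie between 131.5 and 366.4.

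The plot of signals by host gene shows filled and open points mixed along most rows. Some peaks formed runs. Of the 589, 110 (18.7%) lay within 2000 bp of another, in 49 runs. The longest was in Raf, with 5 summits over 6363 bp and signals from 133.2 to 375.8, 2 of them with a fork head site. sbb had a run of 4 over 5108 bp, which included its strongest peak. Runs of 3 were in lab (2912 bp), Lrch (1243 bp), Tet, a TET dioxygenase family gene (1005 bp, a fork head site at each), dnt, babos, shn and lncRNA:CR44357. The run in lncRNA:CR44357 had no site, and over all intronic peaks the share with one was 48.6%. Between neighbouring intronic peaks in general the median distance was 20556 bp. Windows of peaks under 201 bp apart overlap and can share a site.

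Among all 6852 protein-coding genes with intron over 1000 bp from a start, 375 (5.47%) held an intronic peak, counting every gene around a summit, and the density was 11.9 peaks per Mb. Long introns held peaks more often: 0.295% of genes with up to 2 kb of such intron, 7.58% with 2 to 10 kb, 19.6% with 10 to 30 kb, 23% with 30 to 60 kb and 43.6% above that. The 17 gene lists that follow were chosen with earlier results of these data known, and their counts are given without a test. Genes in them mostly have longer introns than the median gene, so the density per Mb stands beside each share. Density itself differed with that length: 7.1 per Mb in genes with up to 2 kb, 18.4 with 2 to 10 kb, 14.9 with 10 to 30 kb, 11.7 with 30 to 60 kb and 7.95 above that.

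The lists of transcription factor genes, taken with the nuclear receptor and ecdysone list, had densities from 17.9 to 50 per Mb. Of the 8 Hox genes 6 held one (75%, 50 per Mb): lab had 3, with 617.8 the highest signal, Antp 5 (525.9), pb 2 (215.9), and Scr (224.0), Ubx (167.8) and Abd-B (144.8) 1 each. The Ubx peak had no summit in replicate 1. Of homeobox genes elsewhere 14 of 63 did (25 per Mb), led by cad (469.2), hth, zfh1 (318.2) and caup (268.2). Zinc finger factor genes had 11 of 40 (34.4 per Mb), with sbb, ush, jing and bowl (260.3) at the top, and basic helix-loop-helix genes 5 of 19 (31.3 per Mb), among them crp (330.7), sim (219.1), nau (171.0) and trh (161.8). The nuclear receptor and ecdysone list, which is not limited to transcription factors, had 6 of 20 (18.9 per Mb). It was led by Hr4 (484.3), the kinase gene Eip63E (340.4), Eip75B and EcR (211.2). Of 10 fork head domain genes, jumu held 1 (162.7, 17.9 per Mb, not found in replicate 2).

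The signalling lists had densities from 12.2 to 58.4 per Mb. The Wingless and Hedgehog list had 11 of 32 genes (34.4%, 53.5 per Mb). Its receptors and ligands included fz, with 3 peaks of up to 435.6, hh with 2 (319.7) and ptc with 2 (246.4), and its feedback inhibitor nkd had 1 (309.7). The EGF, FGF and Ras list had 10 of 28 (35.7%, 46.5 per Mb): the ligand gene vn, the nuclear repressor gene aop (442.4), S, which encodes the Star protein that helps EGF ligands mature (408.7), and Raf led it. The BMP list had 7 of 22 (31.8%, 46.2 per Mb), with cv-2, the receptor gene tkv (275.6), shn and the glypican gene dally (240.9). The JAK/STAT list had 2 of 11, Ptp61F and Stat92E (258.5), with 7 peaks in 120 kb of intron (58.4 per Mb). The Notch list had 3 of 16, the receptor gene N (224.8), mam (214.5) and fng (174.9), at 12.2 per Mb, near the density over all genes.

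Chromatin regulator genes had the highest density, 67.3 per Mb, from 7 peaks in 104 kb: skd (460.0), trx, a histone methyltransferase gene (458.9), Trl (448.7) and ph-p, a Polycomb group gene (212.9), were the leading 4 of 6 genes among 34. Axon guidance genes held peaks often, 13 of 44 (29.5%), but at 13 per Mb, with fra, Ten-a, Fas2 (339.1) and Abl (262.6). Adhesion and junction genes had 8 of 39 (15 per Mb), with cno, kirre, pyd (383.0) and mew, and RNA-binding protein genes 10 of 29 (10 per Mb), with Rbfox1, cpo (476.0), bru2 (265.1) and bru3 (253.3).

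The lowest densities were those of ion channel, synaptic and muscle structural genes. The ion channel and synaptic list had 4 of 56 genes (7.14%, against 5.47% of all protein-coding genes) but 5 peaks in 1732.8 kb of intron, 2.89 per Mb. Its hosts were Elk (320.3), Ca-beta (219.1), nAChRalpha3 with 2 (157.2 the higher) and Ca-alpha1T (139.5). Both nAChRalpha3 summits lay in annotated transposable elements, the only intronic peaks that did. The muscle structural list had 0 of 22, in 153 kb of intron, a length that holds few peaks at the density over all genes. Whole embryos at 2 to 6 h do not show in which cells a peak arose.

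**Figure D5:**
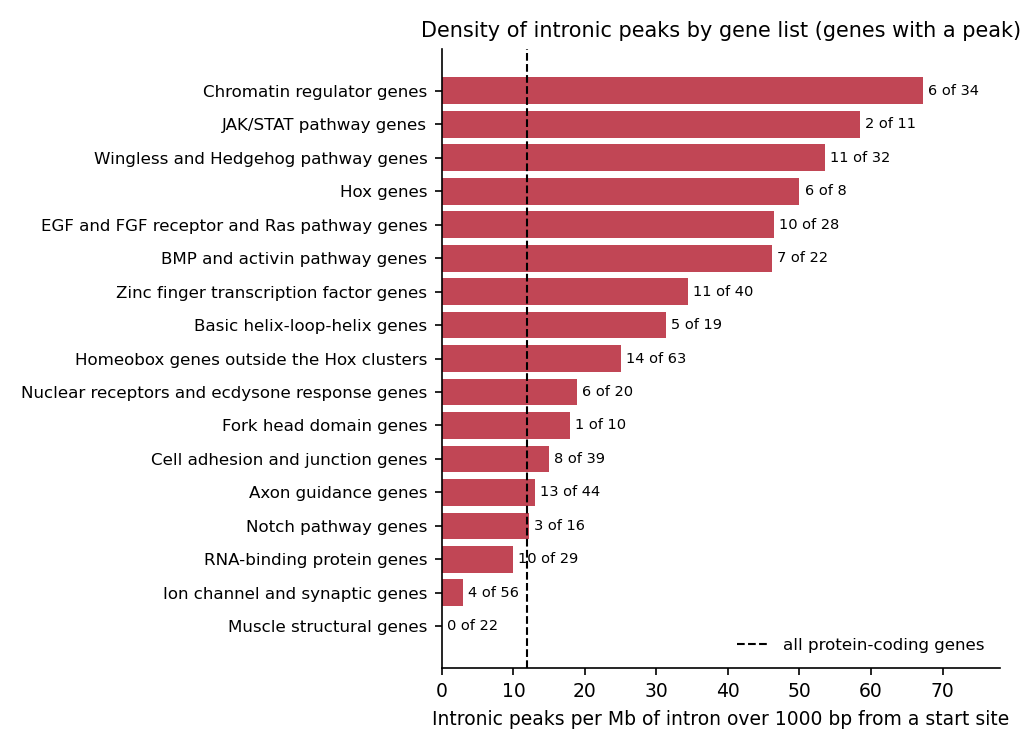
Intronic peaks per Mb of intron over 1000 bp from a start site for 17 gene lists (bars, from 0), with the number of genes holding a peak of those with such intron beside each bar, and the density of all protein-coding genes as a dashed line at 11.9. Chromatin, JAK/STAT, Wingless and Hedgehog, and Hox genes stand highest, and muscle structural genes have none.

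The chart of density by list rests on few peaks for several bars: 7 for chromatin regulators, 7 for JAK/STAT and 1 for fork head genes. Lists share genes, and a peak inside nested genes is counted for each.

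Non-coding genes hosted 33 of the intronic peaks, in 14 genes. lncRNA:CR44357 on the X, which spans 239 kb around several protein-coding genes, held 8 (170.7 to 424.8), all among the highest of both replicates. The nearest protein-coding starts to these were those of CG1677, Cph, unc-119, Atg5 and CG42780. lncRNA:CR32773 held 6 (127.4 to 224.4) and lncRNA:iab8, in the bithorax complex, 4 (126.8 to 187.9), with no fork head site at any of those 4. All 3 peaks of lncRNA:CR44999 had a site, and over all intronic peaks the share was 48.6%.

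By chromosome arm, the density was 12.2 intronic peaks per Mb over 48.4 Mb of intron over 1000 bp from a start, and 9.48 intergenic peaks per Mb over 33.4 Mb of like intergenic sequence. It was 12.7 per Mb on 2L, 12.4 on 2R, 11.7 on 3L, 11.9 on 3R and 13 on X. On X it was 1.09 times that on all other arms together, which did not pass (exact binomial test, p = 0.87 adjusted over 6 arms). Chromosome 4, a small arm rich in repeats, held 1 intronic peak, in Asator, in 0.526 Mb (1.9 per Mb, exact binomial test, p = 0.0258, adjusted p = 0.155). It had the highest density of peaks below the threshold, 318 per Mb, against 193 per Mb over all arms. fd102C itself lies there (836986 to 844529), and its 3202 bp of intron over 1000 bp from a start held 0 of these peaks.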

How the data were processed

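The 4 deposited peak lists on dm6 were 1 per replicate, 1 pooled and the thresholded list. The authors called peaks against a control, per the notes deposited with the files, and the control was not analysed here. No source used here names the aligner or caller, or gives the value of the threshold. The deposited signal of each peak is the authors' value, on an unstated scale. Without read counts in the lists, the depth of each sample is unknown and no counting interval for a sample can be given.

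Summits were placed with Ensembl release 115 (18164 genes, transposable elements left out), and windows of 201 bp were read from the RefSeq copy of dm6, whose arm lengths match. The 25 motifs were matched exactly on both strands. Shares were compared by exact McNemar tests (flanks) and two-sided Fisher's exact tests, with Benjamini-Hochberg adjustment over the 25 motifs, 2080 6-mers or 6 arms. These p-values treat peaks as the units and measure no variation between embryos. That the replicates were separate collections rests on the word biological in the labels. The members, the 17 gene lists (584 entries, 574 genes, 7 matched by an older symbol) and the motifs were chosen with earlier results of these data known. A further list is not reported here. Named genes were hosts of the 25 strongest intronic peaks, the 15 protein-coding genes with the most, up to 4 hosts per list by signal, and the 3 on each side of the limit. Others were named after their values had been seen: the non-coding hosts, hosts of runs, Asator, peaks missing from a replicate, and further Hox hosts. Alternatives were each replicate's 2031 highest peaks, the 1016 strongest thresholded peaks, other distances, windows, flanks and site forms, GC bins and other rank limits. Python 3.11.15, scipy 1.17.1 and statsmodels 0.14.6 were used.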

Additional observations from a re-analysis of the deposited data

How the results depend on the processing

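No paired analysis was possible because the design holds a single group. Of 104 alternatives to 13 results, 85 kept the direction and the call. Results that are counts have no call and were taken as kept where the value stayed close to the main one. Results that did not pass in the main setting were taken as kept where they again did not pass in the same direction. For the other alternatives below the cause was not tested. With the highest peaks of one replicate alone (the other left out), there were 561 to 584 intronic peaks, and the fork head difference was 18.4 to 21.1 points from flanks, 16.5 to 19.5 from peaks below the threshold, 7.6 to 9.29 from intergenic and 6.05 to 7.35 from start-site peaks. The last lost its call without replicate 2. The quartile difference was 2.74 to 8.22 points, the first-gap difference 8.0 to 8.76 points, and the X density ratio 0.947 to 1.03, reversed only without replicate 2. Motifs that differed numbered 4 to 4 against flanks, 5 to 7 against start-site peaks and 0 to 0 against intergenic peaks. With the 1016 strongest thresholded peaks, 308 were intronic. Motifs above flanks fell to 1 and those that differed from start-site peaks to 1, the fork head difference from start-site peaks was 3.53 points, the X ratio 0.887, and recovery in both replicates differed by -0.141 points from intergenic and 0.556 from start-site peaks. In windows reaching 50 bp from the summit 1 motif exceeded the flanks. With 250 bp, 1 motif differed from intergenic peaks, the fork head difference from start-site peaks was -0.0351 points, and that of the proneural E-box from peaks below the threshold 0.161 points. The fork head difference from start-site peaks was 2.71 points with A forms and 5.71 with GC bins, both past no threshold. That from intergenic peaks passed with G forms (9.55 points). Recovery against intergenic peaks reversed to -0.756 points over 2000 bp from a start, -0.418 with summits within 50 bp and -1.62 with 5000 peaks per replicate, and against start-site peaks weakened to 1.02 with 5000. For single motifs, DREF against start-site peaks and GATA against peaks below the threshold passed in all 8 alternatives, while GATA lost its call in 4 of 8 against start-site peaks and 3 of 9 against flanks, Zelda in 5 of 9 against flanks, and GAGA in 7 of 8 against start-site peaks. Those single-motif alternatives were chosen after seeing the data. The unknown depth limits what the absence of a peak shows.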
